A study of Mus musculus with 136 samples.

Results

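Rbm3 and Cirbp encode the cold-inducible RNA-binding proteins, and their transcripts were followed in embryos and visceral yolk sacs of the NOD mouse, a strain in which diabetes arises spontaneously. They were taken as the 2 rows of the count table, among 47643 genes, that carry these symbols, and both were present. The pair was chosen on measured values, namely the higher level of Rbm3 in embryos of diabetic dams at the 5–6 somite stages, so for that contrast the values of both genes are given as a description without a test. By the titles, each of 66 concepti, dissected at 8.5 days of gestation, gave an embryo library and a yolk sac library. At the 5–6 somite stages there were 17 concepti from normal dams (10 litters) and 17 from diabetic dams (9 litters), and at the 7–9 somite stages 16 from normal dams (7 litters) and 16 from diabetic dams (6 litters). Dams labelled diabetic had glucose concentrations of 423 to 595 mg/dl at euthanasia, apart from litter D28M27, whose value was beyond the scale, and normal dams had 105 to 164 mg/dl. All groups share the NOD strain and a chow diet, ages of the dams are not given in the labels, and the diabetic litter D24M15 contributed 7 of the 16 later diabetic concepti. The 3′ end of each transcript was sequenced, and molecules were counted once by their unique molecular identifier (UMI).

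RBM3 and CIRBP are small proteins with a single RNA recognition motif, a fold that holds RNA through the short segments called RNP2 and RNP1, followed by a glycine-rich tail. Their transcripts and proteins are known to rise when mammalian cells are cooled mildly and to be low when cells are warmed, and they bind many messenger RNAs and affect their stability and translation. Temperature was not a variable of this study.

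Rbm3 lies on the minus strand at chrX:8138975-8145880 and Cirbp on the plus strand at chr10:80165985-80172786 (GRCm38, GENCODE M21). The first 240 bases of each reading frame are shown, since they encode the RNA recognition motif that the 2 genes have in common. Capitals mark the bases that encode RNP2 (residues 8 to 13) and RNP1 (residues 47 to 54), in the transcripts Rbm3-201 (in exons within chrX:8143918-8145057) and Cirbp-202 (in exons within chr10:80169814-80170231).
Rbm3: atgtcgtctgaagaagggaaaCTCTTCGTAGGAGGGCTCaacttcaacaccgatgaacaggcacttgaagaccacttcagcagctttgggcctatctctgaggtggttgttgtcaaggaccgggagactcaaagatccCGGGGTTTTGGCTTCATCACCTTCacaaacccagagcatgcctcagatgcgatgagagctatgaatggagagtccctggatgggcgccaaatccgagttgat
Cirbp: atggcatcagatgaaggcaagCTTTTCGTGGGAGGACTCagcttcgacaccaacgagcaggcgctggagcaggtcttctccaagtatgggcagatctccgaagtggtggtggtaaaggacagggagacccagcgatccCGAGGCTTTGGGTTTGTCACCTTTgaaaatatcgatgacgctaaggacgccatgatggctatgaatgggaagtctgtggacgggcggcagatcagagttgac

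These stretches were identical at 171 of 240 bases (71.2%) and at 61 of the 80 encoded residues (76.2%). The remainder of the proteins held 23 glycines among 74 residues for RBM3 (154 residues in all) and 27 among 92 for CIRBP (172 in all). The longest run of bases shared by any Rbm3 transcript and any Cirbp transcript was 11, shorter than the reads. The processed pseudogene Rbm3-ps shares a run of 197 bases with Rbm3 and had 11 counts over all libraries and their duplicates, and Rbm3os, which overlaps Rbm3 on the opposite strand over 452 bases, had 200. Reads lying within the shared run cannot be placed by sequence alone, and whether Rbm3 lost such reads was not tested. With 11 annotated transcripts of Rbm3 and 7 of Cirbp, counts at the 3′ end give the sum over isoforms.

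Levels are given as UMI counts divided by DESeq2 size factors, which put the libraries on a common scale of depth. Library totals, duplicates included, ranged from 1017901 to 5757211 counts. Rbm3 had between 10 and 110 counts in a library and Cirbp between 11 and 339, so counting error limits the precision of single libraries, above all in yolk sacs. In early normal embryos the coefficient of variation of Rbm3 was 32.2%, where counting alone would give 14.8%. Of the libraries made again as batch controls, the embryo of D24M15G gave 31.2 and 40.9 for Rbm3 and 47.2 and 41.7 for Cirbp, and the embryo of N28M06C gave 21.4 and 19.5 for Rbm3 and 119 and 99.9 for Cirbp. Their yolk sacs gave 26.6 and 18.4, and 43.7 and 26.6, for Rbm3, and 18.5 and 16.3, and 24.99 and 22.5, for Cirbp.

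In early embryos, Rbm3 ranged from 21.4 through a median of 35.0 to 61.7 under normal and from 41.99 through 54.2 to 79.7 under diabetic conditions. All 17 embryos of diabetic dams were above the median of the normal group, 7 were above its highest embryo, and 11 of 17 normal embryos were below the lowest of the diabetic group. The means were 38.1 ± 12.3 (SD, n = 17) and 58.9 ± 12.6 (SD, n = 17), a log2 fold change of 0.65 ± 0.13 (SE) or 1.57-fold. This is the contrast that chose the genes, and 1.46% of the 11004 genes fitted in it were called at an adjusted p under 0.05 (0.591% higher and 0.872% lower in diabetic pregnancies). With litter as a random block 4 in place of 161 genes were called there.

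The mean of Cirbp in the same embryos was lower, not higher, in the diabetic group. Cirbp ranged from 75.2 through a median of 118 to 194 under normal and from 53.5 through 102 to 158 under diabetic conditions. The means were 121 ± 37.9 (SD, n = 17) and 100 ± 33.3 (SD, n = 17), and the log2 fold change was -0.26 ± 0.15 (SE). The groups overlapped over most of their range, with 6 of 17 diabetic embryos above the normal median.

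**Figure D1:**
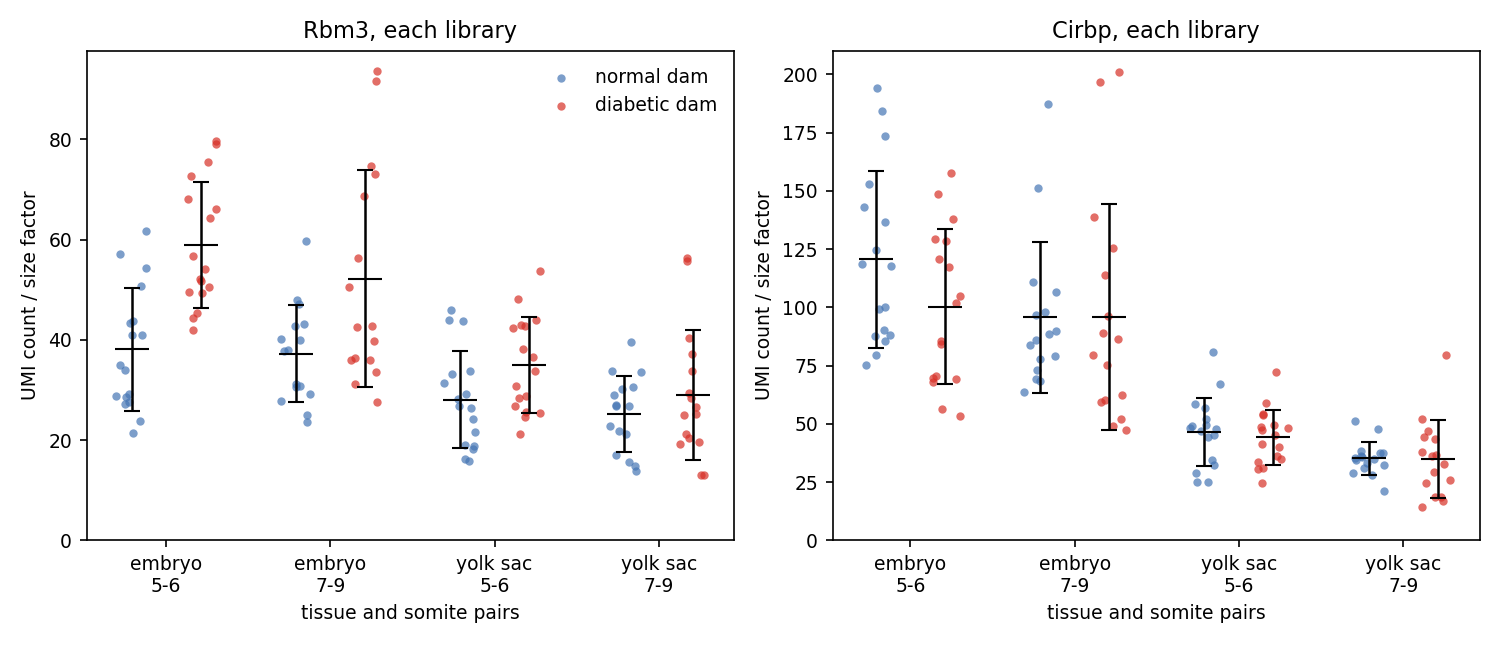
Level of Rbm3 (left) and Cirbp (right) in each library, as UMI count divided by size factor on a linear axis from 0, by tissue and somite pairs. Blue points are libraries from normal dams and red points from diabetic dams, and bars give the mean and SD of 16 or 17 libraries. Rbm3 in early embryos lies at 38.1 ± 12.3 and 58.9 ± 12.6, and both genes are lower in yolk sacs than in embryos.

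The later embryos were not used to choose the genes. There, Rbm3 ranged from 23.6 through a median of 37.9 to 59.7 under normal and from 27.7 through 42.7 to 93.6 under diabetic conditions. The medians were close, and the upper part of the diabetic group carried the difference: 5 of 16 embryos were above the highest normal embryo, and 10 of 16 above the normal median. The means were 37.2 ± 9.69 (SD, n = 16) and 52.2 ± 21.6 (SD, n = 16). The log2 fold change was 0.46 ± 0.16 (95% interval 0.14 to 0.79, p = 0.00646), which did not pass adjustment over all genes (adjusted p = 0.0612, edgeR quasi-likelihood test with Benjamini-Hochberg adjustment). In this comparison 9.09% of 10628 genes passed the threshold, 5.2% higher and 3.89% lower under diabetic conditions.

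The result for Rbm3 in later embryos lay near the threshold and depended on single litters. Without litter D24M15, whose 7 embryos averaged 39.7, the log2 fold change was 0.72 (adjusted p = 0.00882), and without the normal litter N28M30, a single embryo at 59.7, it was 0.52 (adjusted p = 0.0355). Only these 2 of 13 omissions passed. Over all 13 the log2 fold change went down to 0.37, and the adjusted p up to 0.150 (edgeR). With litter as a random block it was 0.44 (adjusted p = 0.133, limma). Cirbp in the same embryos had means of 95.7 ± 32.4 and 95.8 ± 48.5 (SD, n = 16 each), and its log2 fold change was -0.02 ± 0.18 (95% interval -0.40 to 0.35, adjusted p = 0.952).

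In early yolk sacs, Rbm3 ranged from 15.8 through a median of 26.8 to 45.9 under normal and from 21.2 through 33.8 to 53.8 under diabetic conditions. Of the diabetic yolk sacs, 13 of 17 were above the normal median. The means were 28.04 ± 9.67 and 35.0 ± 9.50 (SD, n = 17 each), with a log2 fold change of 0.33 ± 0.15 (95% interval 0.02 to 0.63, p = 0.0382, adjusted p = 0.577, edgeR). In this comparison edgeR called 0 of 10250 genes (0% in all, higher or lower), while DESeq2 called 4 and 863 genes had an unadjusted p under 0.05. Cirbp was at 46.6 ± 14.7 and 44.2 ± 12.0 (SD, n = 17 each), a log2 fold change of -0.07 ± 0.14 (95% interval -0.36 to 0.22, adjusted p = 0.908).

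In later yolk sacs, Rbm3 was at 25.3 ± 7.59 (SD, n = 16) in the normal and at 29.03 ± 13 (SD, n = 16) in the diabetic group. The highest diabetic value, 56.3, rested on 17 counts in D28M36C, the library with the lowest total (1017901). Its mitochondrial share was 11.6%, and its sum of cytosolic heat shock genes was 51329, where the group median was 23767. The value next below was 55.8 in D28M31N, from 60 counts. The log2 fold change of Rbm3, 0.17 ± 0.18 (95% interval -0.21 to 0.54), did not pass the test (adjusted p = 0.777). Cirbp was at 35.2 ± 7.08 and 34.9 ± 16.6 (SD, n = 16 each), with a log2 fold change of -0.02 ± 0.17 (95% interval -0.37 to 0.33, adjusted p = 0.984). Of 10317 genes, 0.0194% were called, all higher (0.0194%) and 0% lower in diabetic pregnancies. Whether the diabetes effect differed between tissues was tested at the later stage: the yolk sac effect minus the embryo effect was -0.30 ± 0.24 (adjusted p = 0.537) for Rbm3 and 0.01 ± 0.26 (adjusted p = 0.991) for Cirbp, where 0.389% of genes passed. At the earlier stage the same differences were -0.31 ± 0.20 for Rbm3 and 0.20 ± 0.21 for Cirbp, given without a test.

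**Figure D2:**
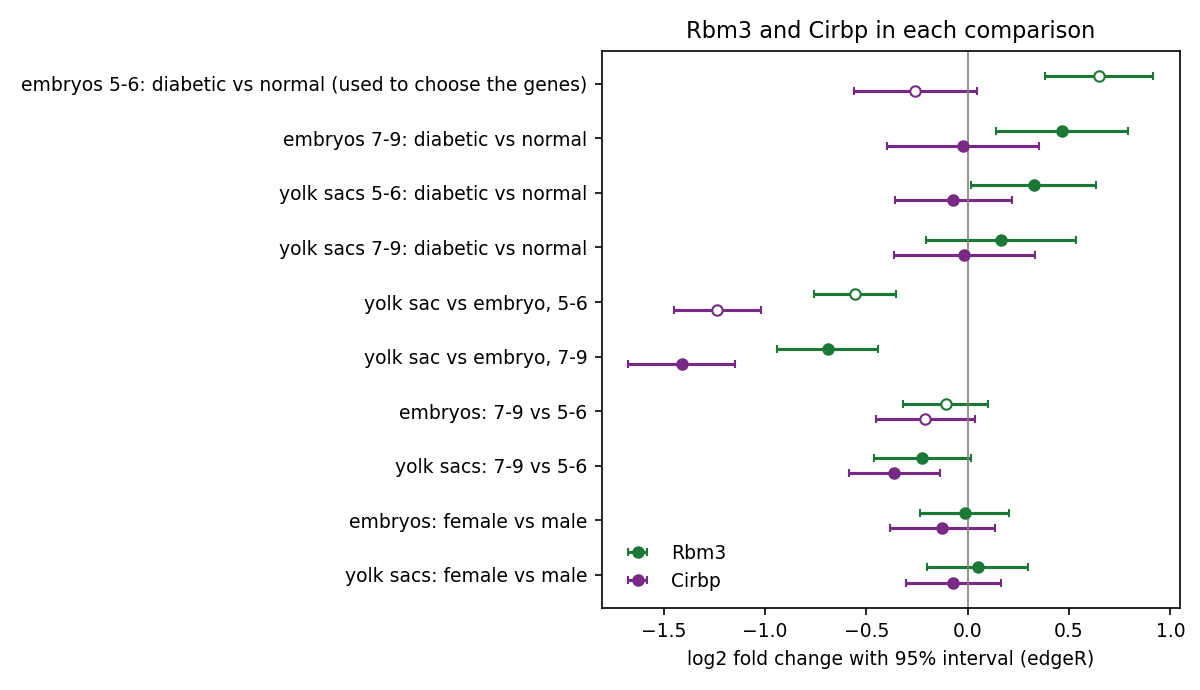
Log2 fold change (horizontal axis) of Rbm3 (green) and Cirbp (purple) with the 95% interval from edgeR, for 10 comparisons of diabetic with normal dams, yolk sac with embryo, 7–9 with 5–6 somite pairs, and female with male. Open symbols mark the contrast that chose the genes and 2 others that draw on early embryos. Female against male in embryos also includes early embryos, though its symbols are filled. All of these are given without a test, so their intervals are a description only. Rbm3 is at 0.65, 0.46, 0.33 and 0.17 in the 4 diabetes comparisons, and the intervals of both genes lie below 0 for yolk sac against embryo at 7–9 somite pairs.

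Littermates share a dam, so litter means were compared as well. In early embryos the means of the 9 diabetic litters for Rbm3 ran from 41.99 to 73.5, all above the median of 40.2 of the 10 normal litters, which ran from 25.4 to 59.4. In later embryos the 6 diabetic litters ran from 39.7 to 81.1 and the 7 normal litters from 30.7 to 59.7, a difference of 0.51 on the log2 scale (exact permutation test over 1716 splits, two-sided, p = 0.0501, adjusted p = 0.150 over 6 tests). In early yolk sacs the diabetic litters ran from 21.2 to 53.8 and the normal litters from 18.9 to 45.9, a difference of 0.39 (exact permutation test over 92378 splits, p = 0.0466, adjusted p = 0.150). In later yolk sacs the exact p for Rbm3 was 0.235 (adjusted p = 0.399). For Cirbp the exact permutation p was 0.712 in later embryos, 0.266 in early yolk sacs and 0.379 in later yolk sacs.

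**Figure D3:**
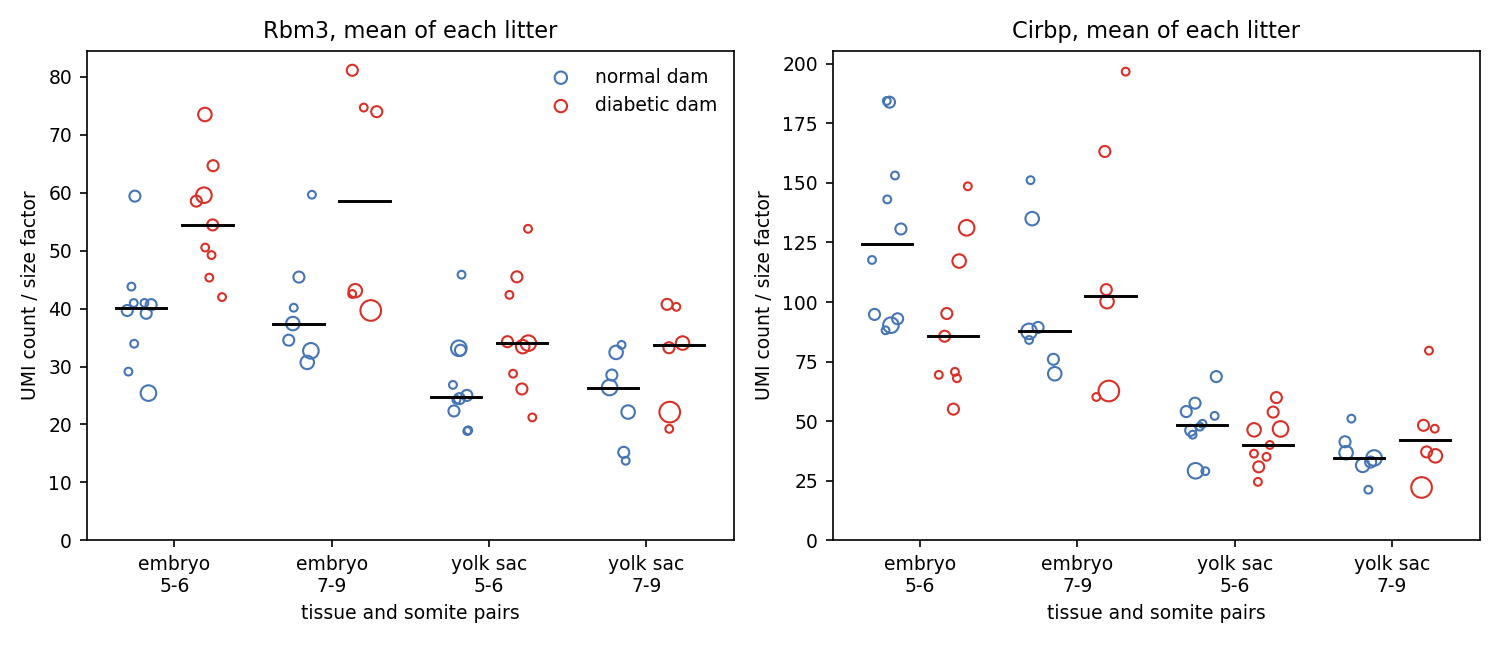
Mean level of Rbm3 (left) and Cirbp (right) in each litter, as UMI count divided by size factor, by tissue and somite pairs. The area of a circle grows with the number of concepti, from 1 to 7, and black lines are medians over litters. In early embryos the median Rbm3 is 40.2 over 10 normal and 54.4 over 9 diabetic litters.

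The diabetic litters with concepti at both stages differed among themselves. In D28M23 Rbm3 averaged 73.5 in 3 early and 81.1 in 2 later embryos. In D24M15 it averaged 58.6 in 2 early and 39.7 in 7 later embryos, and in D28M36 it was 41.99 in a single early embryo and 74.0 in 2 later ones. The normal litter N28M06 was low at both stages, with 25.4 in 4 early and 30.7 in 3 later embryos. Litter D24M15 was also low in Cirbp, at 55.1 and 62.7 in early and later embryos and at 30.8 and 22.2 in early and later yolk sacs.

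Library titles carry a 2-digit number (23, 24 or 28) after the letter D or N, and the labels do not give its meaning. Among early embryos with number 28, Rbm3 was at 33.9 ± 9.03 (SD, n = 12) under normal and 60.6 ± 12.3 (SD, n = 13) under diabetic conditions. With number 24 it was at 50.0 ± 15.6 (SD, n = 4) and 55.9 ± 14.9 (SD, n = 3). Among later embryos with number 28 it was at 37.4 ± 10.5 (SD, n = 13) and 60.3 ± 22.3 (SD, n = 8), and the log2 fold change within that number was 0.68 ± 0.18 (adjusted p = 0.0285, edgeR). With number 24 it was at 36.4 ± 6.25 (SD, n = 3) and 39.7 ± 15.3 (SD, n = 7), and all 7 of these diabetic embryos are from D24M15. Whether the diabetes effect differed between title numbers was not tested.

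Both genes were lower in the yolk sac than in the embryo. Rbm3 was higher in the embryo in 26 of 34 early and 28 of 32 later concepti, with yolk sac means of 31.5 ± 10.1 (SD, n = 34) and 27.1 ± 10.6 (SD, n = 32) against embryo means of 48.5 ± 16.1 and 44.7 ± 18.2. The early embryos include the values that chose the genes, so tissue differences at the earlier stage are given without a test. For Rbm3 the log2 difference of yolk sac and embryo was -0.56 ± 0.10 at the earlier and -0.69 ± 0.12 (adjusted p = 8.64e-07, edgeR) at the later stage, and within early normal concepti alone the means were 28.04 and 38.1. Cirbp was higher in the embryo in all 34 early and all 32 later concepti. Its log2 differences were -1.23 ± 0.11 and -1.41 ± 0.13 (adjusted p = 7.83e-16 at the later stage), so that the yolk sac mean was 41.1% and 36.6% of the embryo mean. Most genes differed between the tissues, with 79.3% and 81.1% called at the earlier and the later stage. In bulk tissue, fewer cells of a type and less RNA per cell cannot be told apart.

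The tissue labels were checked with marker genes. The summed level of 10 visceral endoderm markers, led by Ttr and Afp, was 10372 to 53508 in yolk sacs and 96.3 to 3362 in embryos. The summed level of 8 embryo markers such as Sox2 and Otx2 was 671 to 1640 in embryos and 5.41 to 123 in yolk sacs. Among early embryos the sum of embryo markers ran from 965 to 1628 in the normal and from 671 to 1284 in the diabetic group, and 0 of the 8 markers had a positive log2 fold change (median -0.23, against 0.00 over all genes). Of 8 endoderm markers tested there, 7 had a positive log2 fold change (median 0.19), but 3 of 8 with litter as a random block (median -0.19), and the sum over the list ran from 303 to 1114 and from 165 to 1772. In neither list did a gene pass by edgeR. Among later embryos the endoderm sum ran from 96.3 to 1450 in the normal and from 141 to 3362 in the diabetic group, and a sum of 5 primitive erythroid markers ran from 19.3 to 1577 and from 36.7 to 4633. The 3362 was the library of D24M15G, whose duplicate gave 1028 (erythroid sums 2209 and 390). Positive log2 fold changes by edgeR were found in 8 of 8 endoderm markers (median 0.52) and 3 of 3 erythroid markers (median 1.23). Of the embryo markers 2 of 8 were positive (median -0.12), and no gene of the 3 lists passed by edgeR. DESeq2 called 1 of 10 endoderm markers, higher in the diabetic group, where it called 1407 of 17182 genes. All 10 were positive there (median 0.56). With litter as a random block 5 of 8 (median 0.10), 3 of 3 (1.09) and 2 of 8 (-0.11) were positive. The erythroid regulator Gata1 had no count in 6 of the normal and 8 of the diabetic embryos of this stage. The part of these cells in the values of Rbm3 at either stage was not tested.

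In order of the group means, Rbm3 was highest in early and then later diabetic embryos (58.9 and 52.2), followed by early and later normal embryos (38.1 and 37.2), early and later diabetic yolk sacs (34.96 and 29.03), and early and later normal yolk sacs (28.04 and 25.3). No gap between neighbours in this order was larger than the SD of both groups, and the widest, 14.02 between later diabetic and early normal embryos, exceeded the SD of the latter alone. For Cirbp the 4 embryo groups (121 to 95.7) were separated from the 4 yolk sac groups (46.6 to 34.9) by a gap of 49.1, larger than the SD of either neighbouring group.

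Between the stages, Rbm3 in embryos differed by -0.11 ± 0.10 on the log2 scale (7–9 against 5–6 somite pairs), and Cirbp by -0.21 ± 0.12, both without a test because the early embryos chose the genes. In normal embryos alone the differences were -0.02 ± 0.14 and -0.33 ± 0.14. In the comparison of all embryos 30.1% of genes were called. In yolk sacs Cirbp fell with stage, by -0.36 ± 0.11 (adjusted p = 0.00734, edgeR), and 40.4% of genes were called. Its early and later means were 46.6 and 35.2 in normal and 44.2 and 34.9 in diabetic yolk sacs. Among later diabetic yolk sacs, the 7 of litter D24M15 averaged 22.2, and the means of the other litters ran from 35.5 to 79.6. The part of D24M15 in the fall was not tested. The call for Cirbp did not hold with title number 28 alone, at -0.26 (adjusted p = 0.0858). Rbm3 in yolk sacs was at -0.22 ± 0.12 (adjusted p = 0.127). The stage effect in diabetic minus that in normal embryos was -0.17 ± 0.21 for Rbm3 and 0.25 ± 0.24 for Cirbp, without a test.

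Levels at single somite numbers are tied to litter: D24M15, low in both genes, gave 0 of 4 diabetic embryos with 7 somite pairs, 6 of 9 with 8 and 1 of 3 with 9, so somite number and litter cannot be told apart there. With 7 somite pairs, Rbm3 averaged 67.7 ± 23.3 (SD, n = 4) in diabetic and 38.7 ± 9.09 (SD, n = 7) in normal embryos, and Cirbp 144 ± 36.7 and 82.2 ± 11.2. With 8 pairs, Rbm3 averaged 46.7 ± 22 (SD, n = 9) and 32.8 ± 6.26 (SD, n = 4), and Cirbp 77.3 ± 48.2 and 101 ± 57.9. With 9 pairs, Rbm3 averaged 47.8 ± 10.2 (SD, n = 3) and 38.6 ± 13.2 (SD, n = 5), and Cirbp 87.4 ± 8.60 and 111 ± 24.5. The order of the groups for Cirbp at 8 pairs rested on single embryos. Without N28M07J, at 187, the normal mean was 71.8, below the diabetic mean, without D28M23B, at 201, the diabetic mean was 61.8, and without D24M15 it was 112 (n = 3). Leaving out these embryos was decided with their values known, and none of the differences was tested.

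Rbm3 is X-linked, and the sexes were compared after leaving out 2 concepti whose embryo and yolk sac carry different sex labels. The RNA followed these labels. In D28M27C, Xist and Ddx3y were at 1630 and 2.52 in the embryo but at 30.5 and 295 in the yolk sac. In N28M07E they were at 15.1 and 206 in the embryo but at 2143 and 0 in the yolk sac. These 2 pairs may thus not each come from the same conceptus, and they remain in the counts of pairs and the correlations of embryo with yolk sac. Female embryos differed from male embryos by -0.02 ± 0.11 on the log2 scale in Rbm3 and by -0.12 ± 0.13 in Cirbp. Both values are given without a test, because they include the early embryos that chose the genes. In yolk sacs the differences were 0.05 ± 0.13 (95% interval -0.20 to 0.30) and -0.07 ± 0.12. Few genes were called by sex, 0.13% in embryos and 0.0815% in yolk sacs. By Xist and Ddx3y, 1 of 37 embryo libraries labelled male had more Xist than Ddx3y, and 0 of 29 labelled female had the reverse. The former was D24M15G, with Xist at 197 and Ddx3y at 145, while its duplicate had 57.7 and 154.

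Across concepti of a group, the levels of Rbm3 and Cirbp were correlated in later diabetic embryos (Pearson r = 0.79, Spearman rho = 0.79, n = 16, permutation p = 0.00038 and 0.00049, adjusted p = 0.00304 and 0.00392 over 8 groups). Without the 2 embryos farthest from the median of Rbm3, r was 0.74, and over values centred on litter means it was 0.55 (14 embryos with littermates). Within litter D24M15 r was 0.83 (n = 7), and in the 9 embryos of other litters it was 0.61. The 7 other groups did not pass adjustment, with r = 0.37 in early diabetic, 0.19 in early normal and 0.52 in later normal embryos, and between -0.31 and 0.40 in yolk sacs. For the early embryos, whose values chose the genes, r is a description only. In later diabetic yolk sacs r was 0.16 over all 16 but -0.82 within litter D24M15 (n = 7), the opposite sign to the embryos of this litter, and -0.16 in the 9 of other litters. These subsets were formed after the data had been seen, and the differences between correlations were not tested.

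**Figure D4:**
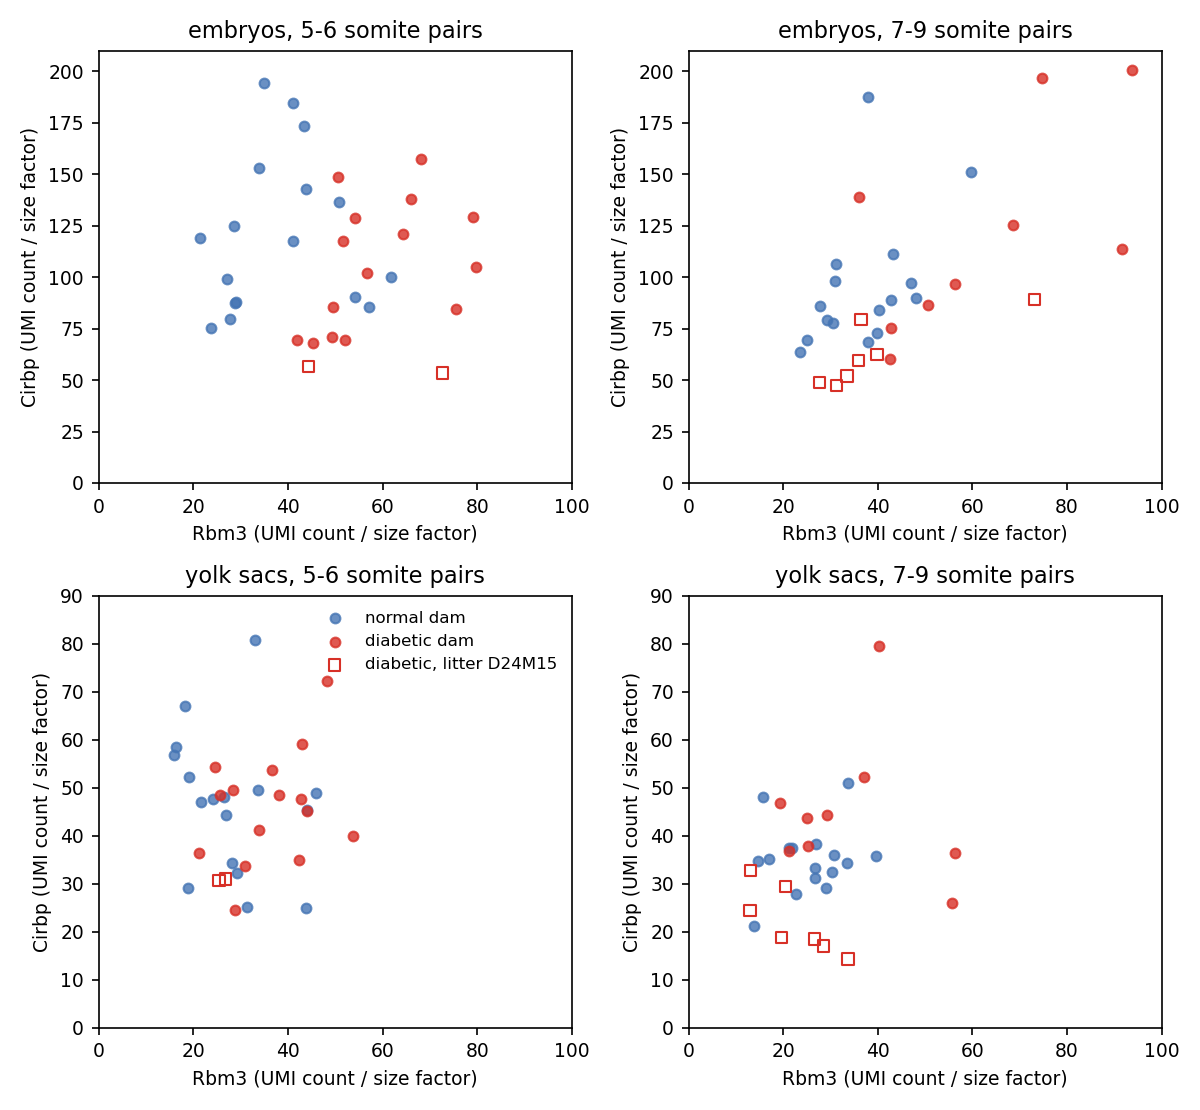
Cirbp (vertical axis) against Rbm3 (horizontal axis) in each library, both as UMI count divided by size factor, in 4 panels by tissue and stage. Blue circles are normal, red circles diabetic, and open squares the diabetic litter D24M15. In later embryos (top right) the litter D24M15 sits at low values of Cirbp, 62.7 on average, and r is 0.79 over the 16 diabetic embryos.

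Within concepti, the levels in embryo and yolk sac were related in later diabetic pregnancies, with r = 0.67 for Rbm3 (rho = 0.73, n = 16, permutation p = 0.00441, adjusted p = 0.0334 over 8) and r = 0.63 for Cirbp (rho = 0.59, permutation p = 0.00836, adjusted p = 0.0334). Without the 2 concepti farthest from the median, r was 0.55 and 0.38. Over values centred on litter means it was 0.54 for Rbm3 and -0.22 for Cirbp, so the relation for Cirbp rested on differences between litters. Within litter D24M15 r was 0.54 for Rbm3 and -0.58 for Cirbp (n = 7), and in the 9 concepti of other litters it was 0.54 and 0.59, subsets again formed after the data had been seen. In later normal concepti Cirbp gave rho = 0.66 (permutation p = 0.00664, adjusted p = 0.0266) and r = 0.47 (permutation p = 0.0738, adjusted p = 0.0984), and r was 0.06 over values centred on litter means. Whether the relations differed between normal and diabetic concepti was not tested. In later normal concepti Rbm3 gave r = 0.12 (adjusted p = 0.656, permutation test), and 0.57 over values centred on litter means. In early diabetic and early normal concepti r was -0.13 and -0.45 for Rbm3, and 0.50 and 0.45 for Cirbp. These early values count among the 8 but are a description only, since the early embryos chose the genes. The glucose concentration of the dam was compared with litter means over 8 early and 6 later diabetic litters. No relation passed adjustment over 8 tests. The lowest r was -0.61 for Cirbp in early embryos (rho = -0.57). The highest was 0.30 for Cirbp in later yolk sacs (rho = 0.20, exact permutation p = 0.562). The early embryos, whose values chose the genes, count among the 8, and their r is a description only. Without the 2 litters farthest from the median glucose, the lowest and highest r became -0.58 and 0.66, over 6 and 4 litters. That of Rbm3 in early embryos moved from -0.42 (rho = -0.33) to -0.76.

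The genes most like Rbm3 were found from deviations from group means over 66 libraries of a tissue, as a description. In embryos these were Abcf2 (r = 0.66), Actb (0.64), Snrpc (0.64), Nbeal1 (0.63) and Ptcd3 (0.62), among 10557 genes, of which 12.4% had r above 0.3. Cirbp was in place 64 (r = 0.52). In yolk sacs they were Rnpc3 (0.65), a protein of the minor spliceosome, the mitochondrial ribosomal RNAs mt-Rnr2 and mt-Rnr1 (0.61 each), Hist1h1e (0.61) and Shld2 (0.59), and Cirbp was in place 2970 (r = 0.09). The share of counts from mitochondrial genes ranged from 4.03% to 12.4% over yolk sacs, and its part in these values was not tested. For Cirbp the nearest genes were Haghl (0.70), Elac2 (0.66), Jmjd7 (0.66), Txnrd3 (0.65) and Klhdc10 (0.65) in embryos, and Wipi1 (0.50), Apln (0.47), Fuca1 (0.47), Nr1d2 (0.45) and Nfia (0.45) in yolk sacs. The points of each r share the depth of their library.

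Genes connected with these proteins were taken from fixed lists. In later embryos, 2 of 10 regulators, partners and known mRNA targets rose and 1 fell, where 5.2% of all genes were called higher and 3.89% lower. With litter as a random block 1 of the 10 was called. Prmt1, an arginine methyltransferase that modifies glycine-rich proteins, was higher by 0.45 ± 0.11 on the log2 scale (adjusted p = 0.00934), and Rtn3, a reticulon whose messenger RNA is a target of RBM3, by 0.22 ± 0.06 (adjusted p = 0.0275). Tnpo1, an import receptor that carries CIRBP to the nucleus, was lower by -0.20 ± 0.06 (adjusted p = 0.0382). The list median was -0.17, against -0.01 over all genes. In early embryos 0 of 11 passed by edgeR and 1 by DESeq2, with 3 at an unadjusted p under 0.05 (21% of all genes), and Rtn3 was at -0.10 ± 0.09.

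Of the temperature-responsive splicing factors and kinases, 3 of 19 fell in later embryos and 0 rose, against 3.89% of all genes lower. None of the 19 was called with litter as a random block. The 3 were Srsf5 (-0.40 ± 0.12, adjusted p = 0.0358), Tra2b (-0.26 ± 0.08, adjusted p = 0.0337) and Srsf10 (-0.26 ± 0.08, adjusted p = 0.0450), all regulators of exon choice. The kinases Clk1 and Clk4, which phosphorylate such factors, were at -0.09 ± 0.14 and 0.04 ± 0.13, and Hnrnph1 was at -0.42 ± 0.19 (adjusted p = 0.144). In early embryos Clk1 was at 0.39 ± 0.18 (adjusted p = 0.199), and 0 of 19 passed by edgeR, with 3 at an unadjusted p under 0.05, against 21% of all genes. Among 18 relatives with an RNA recognition motif or glycine-rich tail, Hnrnpa1 was higher (0.34 ± 0.10, adjusted p = 0.0314) and Rbm5 lower (-0.25 ± 0.07, adjusted p = 0.0272) in later embryos, 2 of 18 where 9.09% of all genes were called. With litter as a random block 1 of the 18 was called, on the lower side.

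Of 22 cytosolic heat shock genes tested, only Hsp90aa1, a chaperone, passed by edgeR in later embryos (0.38 ± 0.10, adjusted p = 0.0150), against 9.09% of all genes. DESeq2 called 2 of 26, and 0 of 22 were called with litter as a random block. Hspa8, a constitutive chaperone, was at 0.52 ± 0.19 (adjusted p = 0.119) in early and 0.14 ± 0.25 in later embryos, and Hsph1 at -0.20 ± 0.10 and -0.12 ± 0.11. In early yolk sacs the heat-inducible Hspa1b was at -1.22 ± 0.35 (adjusted p = 0.375) and Hsp90aa1 at -0.40 ± 0.11 (adjusted p = 0.359), and 8 of 23 genes had an unadjusted p under 0.05, against 8.42% of all genes. Of 14 clock genes, Clock (-0.38 ± 0.11, adjusted p = 0.0330) and Per3 (-0.36 ± 0.12, adjusted p = 0.0437) fell in later embryos, against 3.89% of all genes lower. DESeq2 called 1 of 22, and 0 of 14 were called with litter as a random block. Of 11 immediate early genes, Egr1 (-2.22 ± 0.38, adjusted p = 0.000381) and Dusp1 (-0.59 ± 0.16, adjusted p = 0.0170) fell there, again against 3.89% of all genes lower. DESeq2 called 4 of 17, and 1 of 11 was called with litter as a random block. In early embryos none of the members of the 6 lists passed by edgeR, and 8 of 22 heat shock, 1 of 15 clock, 1 of 18 relative and 3 of 12 immediate early genes had an unadjusted p under 0.05, against 21% of all genes. DESeq2 called 1 clock and 1 immediate early gene there.

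With litter as a random block, 314 in place of 966 genes were called in later embryos. In yolk sacs none of the members of these 6 lists passed by edgeR at either stage. In early yolk sacs, where 8.42% of all genes had an unadjusted p under 0.05, so did 3 of 19 splicing factors and kinases, 1 of 18 relatives, 8 of 23 heat shock, 5 of 13 clock, 1 of 9 regulator and target and 2 of 11 immediate early genes. In later yolk sacs, where the share of all genes was 10.9%, the counts were 0 of 19, 3 of 18, 2 of 23, 2 of 13, 2 of 10 and 5 of 12. All 12 immediate early genes had a positive log2 fold change there (median 0.49, against 0.02 over all genes). In later embryos 2 of 11 were positive (median -0.20).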

How the data were processed

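The authors dissected NOD concepti, extracted RNA with Trizol and made QuantSeq 3′ FWD libraries with UMIs. The submitters' processing notes name STAR, HTSeq and the build mm10, and versions are not given in the sources used here. The deposited values are raw UMI counts for 47643 genes and 136 libraries, and the 4 libraries labelled as batch-control duplicates entered no test. Symbols came from the table and, for 25646 of 26051 genes without a symbol, from GENCODE M21.

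Counts were tested with edgeR 4.0.16 (glmQLFit, glmQLFTest, TMM, filterByExpr with a minimum count of 10) under R 4.3.3, adjusted by Benjamini-Hochberg over all genes of a fit, with a threshold of 0.05. The litter block used voom with duplicateCorrelation in limma 3.58.1, and DESeq2 1.42.0 gave size factors and an alternative test. The script was tested on simulated data. Correlations and litter tests used log2(normalized count + 1), with exact enumeration or 100000 resamples. Embryo and yolk sac are paired by the conceptus named in their titles, also in D28M27C and N28M07E, where their sex differs. No paired fit of diabetic with normal pregnancies is possible, since these share no dam. Libraries within a litter cannot be taken as independent. The litter block estimated a correlation within litters of 0.25 in early and 0.13 in later embryos. In early and later yolk sacs it was 0.16 and 0.10. The p-values over libraries, from edgeR, DESeq2 and the permutation of concepti, treat littermates as independent and can be too small. Sequences were read from GENCODE M21 transcripts.

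The 2 genes, the lists and the tests were chosen with earlier results of these data known. Named from the lists were up to 5 genes per list and diabetes comparison with the smallest adjusted p under 0.05, and Hspa1a, Hspa1b, Hsph1, Hsp90aa1, Hspa8, Clk1, Clk4, Srsf5, Hnrnph1 and Rtn3 where they passed the filter. The 5 genes of highest r with each member were named in each tissue. Alternatives are given in the closing section.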

Additional observations from a re-analysis of the deposited data

Results flagged for a closer look

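Within groups of 1 tissue, somite number and maternal condition with 4 to 10 libraries (28 groups over both genes), 3 values of Cirbp stood apart by Dixon's criterion, which chance meets in about 1 of 20 groups. In diabetic embryos with 8 somite pairs, D28M23B was at 200.9, with the other 8 libraries between 47.2 and 89.1. In normal embryos with 8 pairs, N28M07J was at 187.3, with the other 3 between 68.3 and 77.6. In normal yolk sacs with 9 pairs, N28M30A was at 51.1, with the other 4 between 36.1 and 38.4. The raw counts behind these were 118, 287 and 56. Rbm3 had no such library, and none of the 16 sets of litter means, over both genes, held such a litter.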

How the results depend on the processing

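Rbm3 was higher in diabetic pregnancies under every alternative and every left-out litter in the 3 comparisons that did not choose the genes. These settings reuse mostly the same libraries and are not independent. In early embryos the direction was fixed by the choice of the genes. There Rbm3 ran from 0.52 to 0.87 on the log2 scale over the 10 alternatives and from 0.49 to 0.76 without a litter. In later embryos it passed the threshold by DESeq2 (0.47, adjusted p = 0.0466), with title number as a covariate (0.50, adjusted p = 0.0293) and with title number 28 only (0.68, adjusted p = 0.0285). Without a litter it ran from 0.37 to 0.72, with an adjusted p from 0.00882 to 0.150. In early yolk sacs its adjusted p was never under 0.221 and in later yolk sacs never under 0.588. Cirbp in early embryos stayed between -0.43 and -0.15. In the other 3 comparisons its sign changed in some settings, with an adjusted p never under 0.238. The fall of Cirbp in yolk sacs with stage was not called with title number 28 only (-0.26, adjusted p = 0.0858) or with normal (-0.40, adjusted p = 0.0634) or diabetic pregnancies (-0.34, adjusted p = 0.131) fitted alone, where fewer libraries enter. With the conceptus as replicate block, the tissue differences of Rbm3 were -0.55 and -0.68 and those of Cirbp -1.20 and -1.37, and the block changed no call at the later stage, the one tested. Centred on litter means, the embryo and yolk sac values of Cirbp in later diabetic concepti had r = -0.22 in place of 0.63. Group levels moved by less than 1 SD with size factors within tissue and stage or with TMM-normalized CPM, the latter scaled to the same mean over all libraries. The number of genes called was 161 in early embryos, 493 by DESeq2 and 4 with the litter block. In later embryos the litter block gave 314. In yolk sacs DESeq2 called 4 genes with 5–6 and 38 with 7–9 somite pairs, and the litter block 1 with 7–9. Except where stated, the cause was not tested. Depth limits Rbm3 most in yolk sacs, where counts reached down to 10.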
